A study of Mus musculus with 8 samples.

Results

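The genes described here are 9 ligand and receptor genes of the bone morphogenetic protein (BMP) family in the juvenile mouse ovary, taken by symbol from a gene count table of 45583 symbols. They are the oocyte ligands *Gdf9* and *Bmp15*, the somatic ligands *Bmp2*, *Bmp4*, *Bmp6* and *Bmp7*, and the receptors *Bmpr1a*, *Bmpr1b* and *Bmpr2*. All 9 passed the filter on low counts and were among the 16601 genes tested. Whole ovaries of 3-week-old C57/Bl6 mice were sequenced, 1 library per mouse, from 4 animals labelled WT and 4 labelled GOAT KO. The GOAT KO mice carry a germline deletion of ghrelin-O-acyltransferase (gene *Mboat4*), the enzyme that acylates ghrelin. The study bred both genotypes from heterozygous parents and asked whether the ovarian transcriptome depends on acylated ghrelin. The deletion is present in every cell of the animal, so no effect can be assigned to the ovary itself, and the animals are known by the numbers 1118 to 1121 (WT) and 1139, 1140, 1141 and 1146 (GOAT KO).

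BMP ligands are secreted dimers of the transforming growth factor beta superfamily. They bind type I receptors (*Bmpr1a*, *Bmpr1b*) together with a type II receptor (*Bmpr2*), which phosphorylates the type I receptor, and the signal passes to the nucleus through Smad proteins. In the ovary, GDF9 and BMP15 are made by the oocyte and drive the growth and differentiation of the granulosa cells around it, both acting through *Bmpr2*. BMP2, BMP4 and BMP7 are made by granulosa, theca and stromal cells, and *Bmp6* is also known from oocytes, so its place among the somatic genes follows the grouping used for this comparison.

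The targeted gene had too few reads to check the labels. *Mboat4* had 1 to 3 counts in the libraries labelled WT and 5 to 8 in those labelled GOAT KO, 33 in all, more under the label GOAT KO, and the groups are called by their labels throughout. Which part of the gene was removed is not given in the sources used here, so these few reads may lie outside it. The study tested for loss of the *Mboat4* transcript in GOAT KO ovaries by PCR, an assay that is not analysed here and that these few counts do not replace. Markers of oocytes, granulosa, theca, stroma and surface epithelium were present in every library. The defining genes with the highest level were *Padi6* and *Nobox* for oocytes (373 to 483 and 38.8 to 56.4 CPM, the usual scale of counts relative to library size), *Inha* for granulosa (3089 to 3946 CPM), *Hsd3b1* for theca (1656 to 2281 CPM), *Col1a2* for stroma (960.4 to 1344 CPM) and *Upk3b* for surface epithelium (44.3 to 63.8 CPM). The libraries WT 1120 and GOAT KO 1139 stood apart from the other 6. The summed theca and steroidogenic markers, all 6 of 6 detected, reached 3114 and 3161 CPM in these libraries against 1964 to 2822 CPM in the others. Not each of them was high in both, as *Hsd3b1* in GOAT KO 1139, at 1848 CPM, was the lowest of its label. The summed blood markers were lowest in these 2 libraries, at 146 and 160 CPM against 171 to 590 CPM, and so were the leukocyte markers. The 5 summed adipose markers reached 582 CPM in GOAT KO 1139 against 14.5 to 35.1 CPM elsewhere, with 1 of the 5 at 0 in a library. The part of these markers in any result below was not tested, and the fold change of each member is given with and without both libraries.

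The oocyte ligand genes are short and simple, and the reads that cross their single coding intron show the spliced transcript directly. *Gdf9* (ENSMUSG00000018238, GRCm38 chr11:53431023-53437904, plus strand) had 500 reads across its intron at chr11:53433803-53436615. *Bmp15* (ENSMUSG00000023279, chrX:6314107-6320721, minus strand) had 441 reads across the intron at chrX:6316487-6320041. The sequences that span these exon joins are shown 5′ to 3′ because they are the part of the transcript that genomic DNA cannot give, with the second exon in capitals.
Gdf9 exon 1 to exon 2: gcaaccaggtgacagGACCGCTGCCGATGG
Bmp15 exon 1 to exon 2: taaggcctcccagagGTTCCTGGCATGTAC
Both joins lie within the coding sequence. Between 38 and 88 reads per library crossed the annotated introns of *Gdf9*, and between 38 and 73 crossed the *Bmp15* join, so each of the 8 ovaries held spliced mRNA of both.

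The last intron of *Bmpr2* (ENSMUSG00000067336, chr1:59763400-59879014, plus strand) was used with 2 ends. The annotated intron at chr1:59868616-59870234 had 746 reads, and an unannotated intron that ends 3 bases further on had 80. The sequence across the join of exon 12 and exon 13 is shown because the choice of end decides whether its 3 bases in capitals are part of the mRNA.
Bmpr2 exon 12 to exon 13: gcagcagtatacagaTAGgtgagtcaacac
The shorter form made up 9.69% of the 826 reads over both ends (exact binomial 95% interval 7.75 to 11.9%, counting error only) and was seen in 6 of 8 libraries. In these its share was 10.8% in WT 1119, 7 of 70 reads in WT 1120 and 13.8% in WT 1121, and 18.3% in GOAT KO 1139, 8.33% in GOAT KO 1141 and 14.7% in GOAT KO 1146, so the labels overlapped. It is listed at 0 in WT 1118 and GOAT KO 1140. The deposited junction lists can leave out a junction in a library, since 5 of 38 annotated introns with at least 100 reads in all are listed at 0 in at least 1 library, so a share of 0 is not absence and no test between the groups is given.

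Sequence before the start of transcription was available in the RefSeq promoter table (GRCm38.p6) for 6 of the 9 genes. The window of 250 bases before the *Bmp15* start, chrX:6320725-6320974 on the minus strand, is shown because *Bmp15* is an oocyte gene and NOBOX, a homeobox factor of oocytes, is known to bind TAATTA and TAATTG. Capitals mark matches on either strand to TAATTA or TAATTG and to the E-box CANNTG, none of which overlap here.
Bmp15 upstream window: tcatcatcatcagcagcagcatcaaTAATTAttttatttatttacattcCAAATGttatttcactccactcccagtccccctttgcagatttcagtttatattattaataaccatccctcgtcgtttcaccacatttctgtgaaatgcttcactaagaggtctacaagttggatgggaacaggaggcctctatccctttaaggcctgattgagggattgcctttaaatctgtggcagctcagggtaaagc
The window holds 1 TAATTA, which 4.84% of all 32851 windows of this length hold, and 1 CANNTG, which 66.2% hold. TAATTG was found in 7.17% of all windows. Among the members it occurred in 1 of the 3 *Bmpr1b* windows and TAATTA in none besides that of *Bmp15*. These matches describe the letters of the windows and are not evidence of binding.

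*Bmpr1b* (ENSMUSG00000052430, chr3:141837136-142169425, minus strand) has several annotated first exons, of which the farthest upstream, at chr3:142169145-142169425, has no window in the promoter table. Of the reads over an annotated intron that starts at position 141880517, 58 crossed the intron that ends at 141931398 and 12 the longer one that ends at 141981920. The exon beyond the longer intron is annotated both as a first exon and, in a shorter form, as the second exon of a transcript from the farthest start, and a few reads crossed unannotated introns that leave it upstream at 141982014, so the 12 reads do not show which start was used. They were all in WT 1118, and 3 libraries had no read over either intron, so no comparison between the groups was made. The windows before the annotated starts of these exons are shown to set them side by side, chr3:141982265-141982514 for the middle start and chr3:141931589-141931838 for the proximal one, with the same motifs in capitals.
Bmpr1b middle window: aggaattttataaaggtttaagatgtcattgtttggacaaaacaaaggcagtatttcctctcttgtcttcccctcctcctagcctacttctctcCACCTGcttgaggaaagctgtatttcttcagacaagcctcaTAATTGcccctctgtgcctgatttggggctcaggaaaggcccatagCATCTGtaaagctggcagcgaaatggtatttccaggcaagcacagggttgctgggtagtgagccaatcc
Bmpr1b proximal window: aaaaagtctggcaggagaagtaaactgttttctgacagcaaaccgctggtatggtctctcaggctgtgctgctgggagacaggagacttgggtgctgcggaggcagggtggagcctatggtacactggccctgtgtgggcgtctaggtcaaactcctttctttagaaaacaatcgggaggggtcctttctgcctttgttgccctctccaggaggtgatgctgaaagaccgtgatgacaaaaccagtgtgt
The middle window holds 1 TAATTG and 2 CANNTG, and the proximal window shown holds none of the motifs. A second proximal window, chr3:141931421-141931670, overlaps the one shown and an exon of the gene, and holds 1 CANNTG.

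The other members lie, on GRCm38, at chr2:133552159-133562885 on the plus strand (*Bmp2*), chr14:46383520-46390669 on the minus strand (*Bmp4*), chr13:38345107-38500302 on the plus strand (*Bmp6*), chr2:172868012-172940321 on the minus strand (*Bmp7*) and chr14:34410734-34503341 on the minus strand (*Bmpr1a*). Levels of the 9 genes were compared per length of exons (RPKM, CPM per kilobase of exon, mean ± SD over 8 libraries). By this measure *Gdf9* was the highest at 151 ± 11.5 RPKM, and its lowest library, at 138 RPKM, lay above every library of every other member. *Bmpr1b* followed at 55.0 ± 7.42 RPKM, *Bmp15* at 49.6 ± 4.91 RPKM, *Bmpr2* at 47.3 ± 8.01 RPKM and *Bmpr1a* at 35.5 ± 1.64 RPKM. Each of these 4 overlapped with its neighbour in the order across libraries. The somatic ligands were lower. *Bmp2*, at 15.6 ± 4.42 RPKM, did not overlap with *Bmpr1a* above it, but overlapped with *Bmp6*, at 7.49 ± 0.860 RPKM, through WT 1120 (7.52 RPKM for *Bmp2*). *Bmp4*, at 3.82 ± 0.604 RPKM, lay below *Bmp6* in every library and overlapped with *Bmp7*, the lowest at 2.62 ± 0.459 RPKM. When the longest transcript was used as the length, *Bmpr2* rose in the order to 66.0 RPKM, above *Bmpr1b* at 61.3 RPKM and *Bmp15* at 49.6 RPKM, so the order of these 3 depends on the length used.

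**Figure D1:**
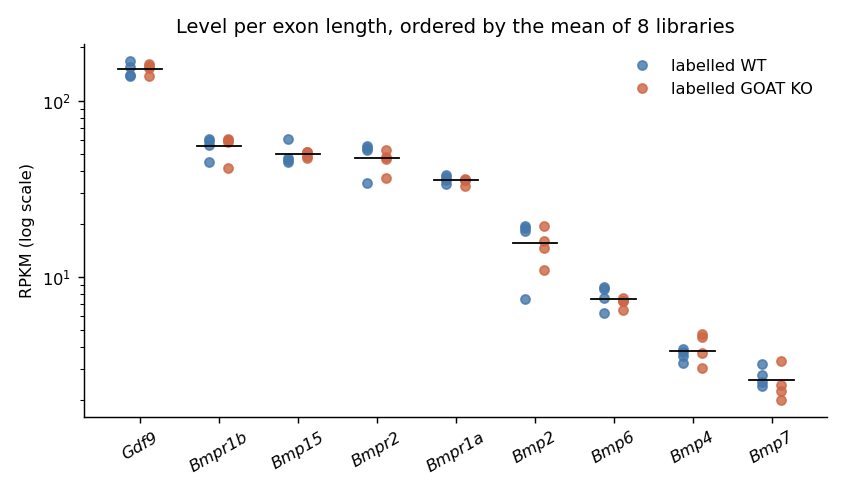
Level of each gene per exon length in RPKM on a log axis, with 1 point per library by label and a line at the mean of 8 libraries, ordered from *Gdf9* (151) to *Bmp7* (2.62). All points of the oocyte ligands and the receptors lie above all points of the 4 somatic ligands.

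Per length, *Gdf9* was 2.78 to 3.45 times *Bmp15* in each of the 8 ovaries. The ratio was 3.04 ± 0.289 (SD, n = 4) under the label WT and 3.07 ± 0.112 (SD, n = 4) under the label GOAT KO. Together the oocyte ligands were 5.71 to 8.97 times the sum of the 4 somatic ligands, and the 2 highest values were WT 1120 (8.97) and GOAT KO 1139 (8.10). Among type I receptors, *Bmpr1b* exceeded *Bmpr1a* by 1.27 to 1.70 times, and the ratio was lowest in GOAT KO 1139 and next lowest in WT 1120 (1.34). Reads across the coding intron, which need no exon length, were closer, at 500 for *Gdf9* and 441 for *Bmp15*. *Bmp15* had more of them in WT 1118 (73 against 38) and WT 1119 (64 against 63), and *Gdf9* in the others. The last intron of *Bmpr2* had 746. The size of the *Gdf9* ratio and its place above the receptors therefore depend on the measure.

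The oocyte ligands did not differ detectably between the groups. *Gdf9*, a ligand that oocytes need for follicles to grow past the primary stage, was at 341, 282, 313 and 281 CPM in WT 1118, 1119, 1120 and 1121, and at 311, 319, 329 and 280 CPM in GOAT KO 1139, 1140, 1141 and 1146. The groups overlapped, with the highest library in one and the lowest in the other. The log2 fold change (GOAT KO minus WT) was 0.03 ± 0.08 (SE, edgeR adjusted p = 0.986, two-sided exact permutation p = 0.83), and the 95% interval ran from 0.904- to 1.14-fold. Leaving out WT 1120 and GOAT KO 1139 gave 0.04 ± 0.09 (SE). *Bmp15*, its X-linked partner, was at 185, 141, 137 and 145 CPM in WT and 148, 157, 157 and 145 CPM in GOAT KO. WT 1118 was above all other libraries, and the remaining 7 lay between 137 and 157 CPM. Both group means were 152 CPM, and the interval of the fold was 0.872 to 1.15 (edgeR adjusted p = 0.999). In the 6 libraries its log2 fold change was -0.04 ± 0.10 (SE). In whole ovaries, fewer cells of a type and less RNA per cell cannot be told apart. The summed markers of growing oocytes, all 8 of 8 detected, ranged from 1194 to 1406 CPM in WT and from 1274 to 1518 CPM in GOAT KO, and those of oocytes in small follicles from 83.0 to 105 CPM and from 85.4 to 106 CPM.

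The 4 somatic ligands were not called either. *Bmp2*, a ligand known from granulosa cells, was at 69.3, 67.7, 26.8 and 64.4 CPM in WT and 38.7, 69.2, 57.0 and 51.7 CPM in GOAT KO. The lowest values were in WT 1120 and GOAT KO 1139, and the other 6 libraries lay between 51.7 and 69.3 CPM. Its log2 fold change was -0.07 ± 0.26 (SE, edgeR adjusted p = 0.986, exact permutation p = 0.80), and its interval, 0.634- to 1.42-fold, was the widest of the 9. Without these 2 libraries the SE fell to 0.10 and the log2 fold change was -0.18 (edgeR adjusted p = 0.577).

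*Bmp4*, which theca and stromal cells are known to make, was at 7.98, 7.33, 8.44 and 8.77 CPM in WT and 6.81, 8.30, 10.7 and 10.3 CPM in GOAT KO. GOAT KO 1141 and 1146 lay above all WT libraries and GOAT KO 1139 below them. The log2 fold change was 0.16 ± 0.15 (SE, edgeR adjusted p = 0.983, exact permutation p = 0.40), and without WT 1120 and GOAT KO 1139 it was 0.29 ± 0.14 (SE, edgeR adjusted p = 0.552).

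*Bmp7*, a second ligand known from theca and stroma, was at 12.9, 10.2, 9.70 and 11.1 CPM in WT and 13.4, 9.03, 9.87 and 8.07 CPM in GOAT KO. GOAT KO 1139 held the highest value of all 8 libraries, and the other 3 of its label held 3 of the 4 lowest. The log2 fold change was -0.12 ± 0.16 (SE, edgeR adjusted p = 0.983, exact permutation p = 0.543). The value was -0.02 without GOAT KO 1146 and -0.03 without WT 1118, so either library alone decides most of it. Without WT 1120 and GOAT KO 1139 it was -0.34 ± 0.13 (SE, edgeR adjusted p = 0.501). This last value has an unadjusted p under 0.05 and passes a log2 threshold of 0.3, as 4.77% of all genes did in these 6 libraries and 2.21% in the lower direction, but not the 0.5 used for calls.

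*Bmp6*, made by oocytes as well as by somatic cells, was at 34.2, 29.5, 33.1 and 24.4 CPM in WT and 29.6, 28.6, 25.4 and 28.7 CPM in GOAT KO. The GOAT KO libraries lay inside the range of the WT libraries, and the log2 fold change was -0.11 ± 0.11 (SE, edgeR adjusted p = 0.983, exact permutation p = 0.40). Without WT 1121, its lowest library, the value was -0.20 with an unadjusted p under 0.05, which 4.47% of genes had in that fit, and in the 6 libraries it was -0.09 ± 0.12 (SE). Of the exon bases of *Bmp6*, 5.74% also belong to exons of *Txndc5* on the other strand, a gene with 75988 counts in all, and the use of the strand in counting is not given in the sources used here. Reads of this overlap could therefore belong to either gene.

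The receptors, which granulosa cells and other somatic cells carry, were likewise not called. *Bmpr2*, the type II receptor that GDF9 and BMP15 share, was at 943, 995, 614 and 963 CPM in WT and 656, 943, 861 and 835 CPM in GOAT KO. As with *Bmp2*, WT 1120 and GOAT KO 1139 were the lowest of all libraries. The log2 fold change was -0.09 ± 0.15 (SE, edgeR adjusted p = 0.983, exact permutation p = 0.571). Without these 2 libraries it was -0.14 ± 0.06 (SE, edgeR adjusted p = 0.539). Without WT 1120 alone it was -0.24, at an unadjusted p under 0.05 that 10.6% of genes also had in that fit. Without GOAT KO 1139 alone it was 0.0015, and without WT 1119 alone it was -0.03. Its size therefore depends on single libraries, while 14 of 15 alternatives kept its direction.

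*Bmpr1b*, a type I receptor that BMP15 is known to bind, was at 332, 362, 268 and 352 CPM in WT and 249, 360, 355 and 345 CPM in GOAT KO. The low values again fell in WT 1120 and GOAT KO 1139, the other 6 lay between 332 and 362 CPM, and the log2 fold change was -0.01 ± 0.13 (SE, edgeR adjusted p = 0.995, exact permutation p = 0.943). In the 6 libraries it was 0.02 ± 0.06 (SE). *Bmpr1a*, the more widely expressed type I receptor, was at 234, 227, 212 and 241 CPM in WT and 209, 227, 225 and 226 CPM in GOAT KO. It was the most even of the 9 genes, with an SD of 0.07 on the log2 scale over the 8 libraries, below that of all but 8.77% of the genes tested. Its log2 fold change was -0.04 ± 0.06 (SE, edgeR adjusted p = 0.983, exact permutation p = 0.371), and -0.05 ± 0.05 (SE) in the 6 libraries.

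**Figure D2:**
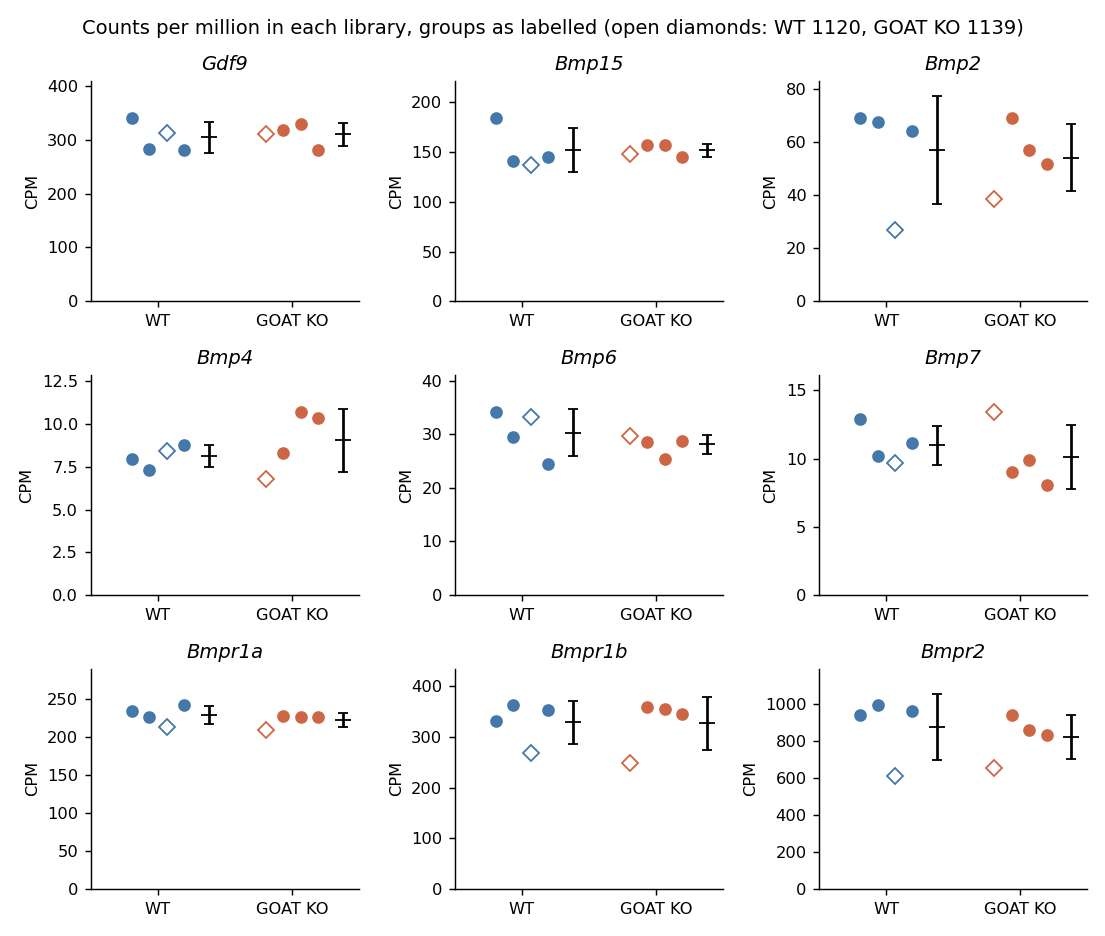
CPM of each gene in each library by label, with the mean and SD (n = 4) beside the points and an axis from 0. WT 1120 and GOAT KO 1139, drawn as open diamonds, are the 2 lowest libraries for *Bmp2* (26.8 and 38.7) and for the receptors, but not for *Gdf9* or *Bmp15*.

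Of the 9 genes, 0 were called by edgeR, where a call needs an unadjusted p under 0.05 and a log2 fold change beyond 0.5 in either direction. The share over all genes tested was 1.67% (278 of 16601). At an unadjusted p under 0.05 alone the edgeR count was 0 of 9, against 4.62%, and at the lower threshold of 0.3 it was 0 of 9, against 2.85%. DESeq2 and limma-voom also gave 0 of 9 at an unadjusted p under 0.05, against 4.02% and 4.49% of all genes, and their calls beyond 0.5 covered 1.26% and 1.55% of genes. None of the 9 had groups that did not overlap, which 2.92% of genes had. At an adjusted p under 0.05, 4 of 16601 genes passed (0.0241%), and 0.12% in the 6 libraries. The median log2 fold change of the 9 was -0.04, beside 0.00 over all genes. In the 6 libraries, 0 of 9 were called (2.39% of genes) and 1, *Bmp7*, had an unadjusted p under 0.05 (9.46% of genes). Against these background shares, a count of 0 among 9 genes is not a result about them.

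**Figure D3:**
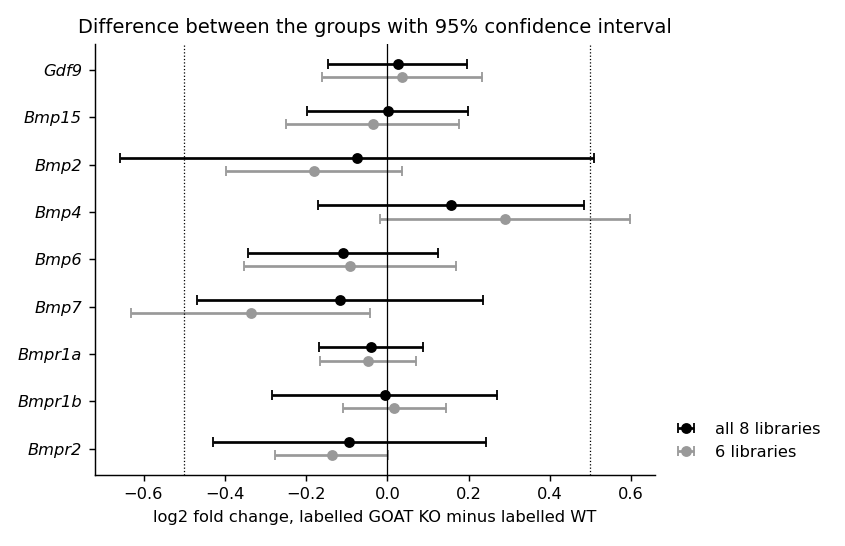
Log2 fold change of each gene with its 95% interval, for all 8 libraries in black and for the 6 without WT 1120 and GOAT KO 1139 in grey, with dotted lines at the call threshold of 0.5. All intervals of the 8-library comparison include 0, and that of *Bmp2* is the widest.

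The oocyte ligands were then set against the somatic ligands. Within each library, the mean log2 CPM of *Gdf9* and *Bmp15* was reduced by that of the 4 somatic ligands, a score whose level depends on gene length but whose difference between the groups does not. The score was 3.46 ± 0.147 (SD, n = 4) under the label WT and 3.51 ± 0.0622 (SD, n = 4) under the label GOAT KO, a difference of 0.05 that lay within the spread between libraries. The difference was 0.02 without *Bmp6*, and it ranged from 0.0071 without WT 1119 to 0.11 without WT 1120 when 1 library was left out, so its size rests on single libraries. The highest score was in WT 1120 (3.66) and the next in GOAT KO 1139 (3.58), where *Bmp2* was lowest. Since the members were chosen with results known, no test was made of the score.

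The spread among libraries followed a shared pattern in *Bmp2*, *Bmpr2* and *Bmpr1b*, and to a small extent in *Bmpr1a*. WT 1120 and GOAT KO 1139 were both below all other 6 libraries in 4 of the 9 genes, *Bmp2*, *Bmpr2*, *Bmpr1b* and *Bmpr1a*, and both above them in 0 of 9. Over all genes tested, both lay below the other 6 in 11.0% and both above in 11.3%, so the pattern is found in many genes outside the BMP family, and the 4 of 9 was not tested against these shares. *Bmp2* had an SD of 0.49 on the log2 scale over the 8 libraries, larger than that of 94.1% of all genes and of 99.2% of genes within 2-fold of its CPM. The SD was 0.11 for *Gdf9* and 0.14 for *Bmp15*. In WT 1120 *Gdf9* was at 313 CPM and in GOAT KO 1139 at 311 CPM, in the middle of the other 6. *Bmp15* was lowest in WT 1120 (137 CPM) but not low in GOAT KO 1139 (148 CPM). The mean over these 2 libraries was below that of the other 6 by 8.42% for *Bmpr1a*, 26.4% for *Bmpr1b*, 31.3% for *Bmpr2* and 48.2% for *Bmp2*. For *Bmp15* it was below by 7.97%, close to the value of *Bmpr1a*. Reads across annotated introns, a subset of the same reads and not scaled to library size, were summed over the introns listed with reads in each of the 8 libraries, a restriction chosen after seeing the data. They were lowest in WT 1120 and GOAT KO 1139 for *Bmpr2*, at 297 and 348 (430 to 654 in the other 6), for *Bmpr1b*, at 249 and 250 (284 to 468), and for *Bmpr1a*, at 279 and 305 (314 to 431). Over all annotated introns the order was kept for *Bmpr2* and *Bmpr1b* but not for *Bmpr1a*, which was lowest in GOAT KO 1140 (314), where an intron with 40 to 59 reads in 4 other libraries is listed at 0. *Bmp2* had no intron with reads in every library.

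**Figure D4:**
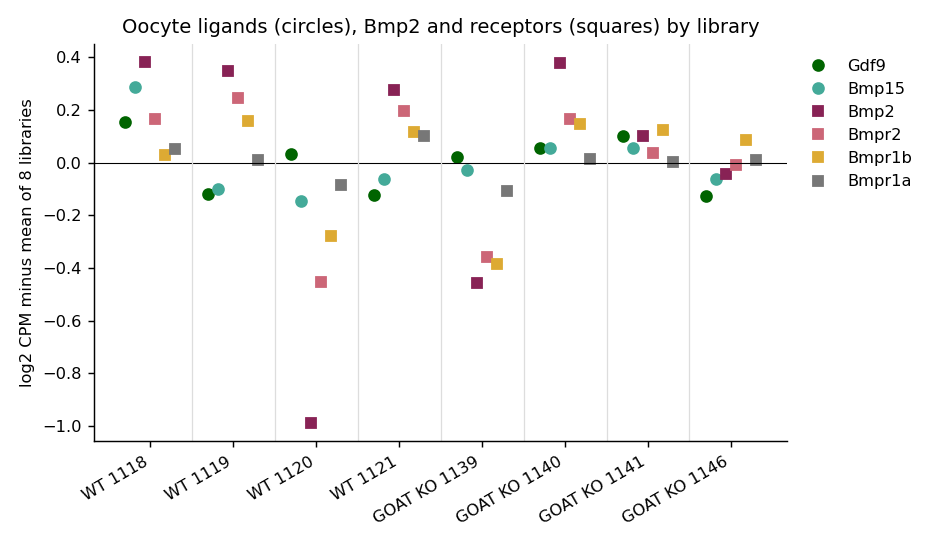
Log2 CPM of each gene in each library relative to its own mean over 8 libraries, with circles for the oocyte ligands and squares for *Bmp2* and the receptors. The squares of WT 1120 and GOAT KO 1139 lie below 0, with *Bmp2* lowest, whereas *Gdf9* lies near 0 there.

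The genes whose pattern was nearest to each member were found by the SD, over the 8 libraries, of their log2 ratio to it among 16600 genes. This is a description, as the libraries share their composition and depth. Nearest to *Gdf9* were *Myo5b* (SD 0.02), *Oas1d* (0.03), *Vrtn* (0.03), *Pramef12* (0.04) and *Naa60* (0.04), and *Bmp15* stood at place 530 (SD 0.09). *Ppp1r13b*, *Disp1*, *Mink1*, *Arid1a* and *Atat1* were nearest to *Bmp15*, all at 0.04, with *Gdf9* at place 371. *Irs2* (0.07), *Gm37261* (0.09), *Krt20*, *Grb14* and *Fam46a* (each 0.11) were nearest to *Bmp2*, for which *Bmpr2* was at place 130 (0.24). For *Bmpr1b* they were *Slc4a7* (0.05), *Dzip1l* (0.06), *Adcy9* (0.06), *5530601H04Rik* (0.07) and *Cflar* (0.07), with *Bmpr2* at place 111 (0.11). *Bmp4* was nearest to *Slc47a1*, *Gas6*, *Eda*, *Ccdc3* and *Heph* (0.10 to 0.11), *Bmp6* to *Slc26a9*, *Fbxo46*, *Gm11944*, *Nab2* and *Gm4799* (0.03 to 0.06), and *Bmp7* to *Gm14292*, *Maob*, *Ebf1*, *Cdc34-ps* and *Gm11964* (0.10 to 0.12). *Bmpr1a* was nearer to *Bmp15* (0.13) and *Gdf9* (0.14) than to *Bmpr1b* (0.16), *Bmpr2* (0.21) or *Bmp2* (0.44).

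The other genes of the pathway were taken from 7 lists. Of 54 listed genes, 45 were tested, and 2 were called, both higher in the libraries labelled GOAT KO, where 0.958% of all genes were called higher. Their median log2 fold change was -0.02, beside 0.00 over all genes. Neither passed an adjusted p under 0.05. Both belong to the genes of granulosa and cumulus cells known to respond to GDF9 or BMP15, of which 7 of 8 were tested, with log2 fold changes from -0.49 to 1.29. This list was drawn up with called genes of these data known, *Grem1* among them, so its count is no independent evidence.

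*Grem1*, a secreted antagonist of BMP2, BMP4 and BMP7 made by granulosa and cumulus cells, was at 4.21, 4.33, 5.87 and 5.34 CPM in WT and 6.04, 6.59, 13.3 and 22.2 CPM in GOAT KO. The groups did not overlap, and GOAT KO 1141 and 1146 were far above GOAT KO 1139 and 1140. The log2 fold change was 1.29 ± 0.37 (SE, edgeR adjusted p = 0.983, exact permutation p = 0.0286, the smallest this design can give). It was 1.60 in the 6 libraries and 0.82 without GOAT KO 1146, called in both. *Tnfaip6*, which encodes a binding protein of the hyaluronan matrix around the ovulated oocyte, was at 0.433, 0.610, 0.493 and 0.599 CPM in WT and 0.956, 1.40, 0.869 and 0.638 CPM in GOAT KO, from 7 to 23 counts per library. All GOAT KO values lay above all WT values, though the lowest, 0.638 CPM in GOAT KO 1146, was close to the highest of WT. Its log2 fold change was 0.83 ± 0.29 (SE, edgeR adjusted p = 0.983, exact permutation p = 0.0286). It was no longer called without GOAT KO 1140 (0.61) or in the 6 libraries (0.80). *Slc38a3*, an amino acid transporter of cumulus cells, went the other way at -0.49 ± 0.29 (SE, edgeR adjusted p = 0.983) and was not called, but was called lower without WT 1118 (-0.66) or GOAT KO 1146 (-0.71). *Amh*, the most abundant gene of this list, was at 295 to 453 CPM with a log2 fold change of -0.21 ± 0.11 (SE, edgeR adjusted p = 0.983).

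None of the other lists held a called gene in the 8 libraries (edgeR). Of 9 other ligands 3 were tested, led by *Bmp3* at 77.0 to 149 CPM, a BMP that is known to counter other BMPs, whose 2 lowest libraries were WT 1120 (77.0 CPM) and GOAT KO 1139 (96.3 CPM) and whose log2 fold change was 0.11 ± 0.18. The other 2 were not called either, *Bmp5* at -0.16 ± 0.12 and *Bmp8a*, with 2 to 12 counts per library, at -0.60 ± 0.45 (SE, edgeR adjusted p = 0.983 for both). *Bmp8a* was called lower when GOAT KO 1139 was left out (-1.14). *Bmp10* and *Gdf7* had 0 counts in each of the 8 libraries. Of the other receptors and co-receptors 10 of 11 were tested, with log2 fold changes from -0.10 to 0.12, and *Tgfbr1*, a type I receptor that GDF9 uses, was the highest at 185 to 211 CPM. All 6 Smads, led by *Smad5*, which carries BMP signals (206 to 235 CPM), were between -0.07 and 0.06. The 8 inhibitors inside the cell and at its membrane, led by *Ski*, a corepressor of Smads (202 to 267 CPM), were between -0.22 and 0.06.

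Among target genes of BMP signalling, 6 of 7 were tested and lay between -0.14 and 0.05 on the log2 scale. *Id3*, the highest of them, was at 137, 152, 178 and 128 CPM in WT and 167, 153, 144 and 152 CPM in GOAT KO. Its 2 highest libraries were WT 1120 and GOAT KO 1139, where *Bmpr2* was lowest. The 5 proteases that process the ligands, led by *Bmp1* (201 to 222 CPM), a metalloprotease and not a BMP ligand, held 1 gene with an unadjusted p under 0.05, *Pcsk5*, a proprotein convertase, with a log2 fold change of 0.16 ± 0.06 (SE, edgeR adjusted p = 0.983), below the call threshold.

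**Figure D5:**
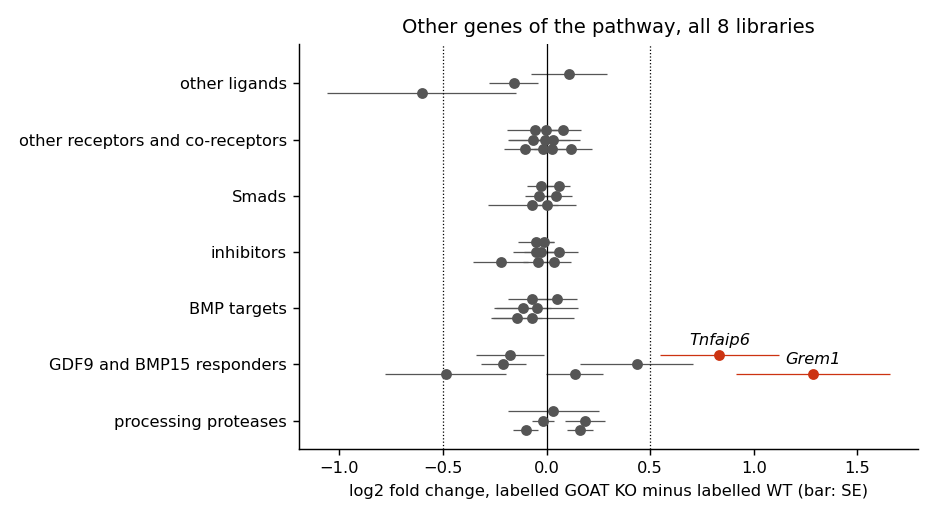
Log2 fold change with SE of the 45 tested pathway genes in 7 lists for all 8 libraries, with dotted lines at the call threshold of 0.5 and called genes in red. *Grem1* (1.29) and *Tnfaip6* (0.83) are the 2 called genes and most others lie close to 0.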

How the data were processed

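RNA of 8 whole ovaries was sequenced as single reads of 50 bases. The authors aligned the reads with TopHat2 2.0.14 (mm10, GRCm38), assembled transcripts with StringTie 1.0.4, and deposited whole-number counts per gene symbol and counts of reads per splice junction; the counting tool is not given in the sources used here. The deposited percent of reads mapped was 85.92 to 87.02, and the counts on genes sum to 16147216 to 19481798 per library. Libraries of a group differed by more than sampling noise (chi-square per gene at least 3.96).

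The groups were compared with the quasi-likelihood test of edgeR 4.0.16 (R 4.3.3), after TMM scaling and filterByExpr with at least 10 counts, and adjusted p-values are Benjamini-Hochberg over all genes tested. The SE comes from dividing the log2 fold change by the root of F. A call needs an unadjusted p under 0.05 and a log2 fold change beyond 0.5 in either direction. DESeq2 1.42.0, limma-voom (limma 3.58.1), RLE size factors, total counts, no filter, junction reads, each library left out and 6 libraries (without WT 1120 and GOAT KO 1139) were alternatives. The study left out 1 library per group without naming it, and the set of 6 follows earlier work on these data. On simulated data the fit was checked before use. CPM are TMM-normalized, exon lengths come from GENCODE vM21 of GRCm38, and likeness and spread used log2(CPM + 0.05). Genes named are the members, *Mboat4*, called pathway genes, the highest of each pathway list and of the main marker lists, and the nearest 5 genes; *Pcsk5*, *Bmp5*, *Bmp8a*, *Bmp10*, *Gdf7*, *Slc38a3* and *Txndc5*, and the further genes of the other observations, were added after their values were seen. The members and lists were chosen with earlier results of these data known. The labels do not give the litter of each animal, and p-values weigh the difference between the groups against the spread between these libraries.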

Additional observations from a re-analysis of the deposited data

Results flagged for a closer look

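By Dixon's test for 1 sample apart in a group of 4, 5 of 22 groups were flagged, where chance flags about 1 in 20. WT 1118 was high for *Bmp15* (185 CPM). WT 1120 was low for *Bmp2* (26.8 CPM) and *Bmpr2* (614 CPM), and GOAT KO 1139 was low for *Bmpr1a* (209 CPM) and *Bmpr1b* (249 CPM). In each of the last 4, the other of these 2 libraries was the lowest of its own group as well.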

How the results depend on the processing

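No paired analysis was possible because the groups share no replicate numbers. The number of members called was 0 in the 18 alternatives except for 1, *Bmp7*, in the 6 libraries with a log2 threshold of 0.3, a setting chosen after seeing the data. Over all genes, 278 calls became 691 with no filter on low counts, 177 with junction reads, 473 at a threshold of 0.3, 4 at an adjusted p, 793 in the 6 libraries at 0.3, and 231 to 437 when 1 library was left out (437 without WT 1120). The 2 calls among pathway genes became 1 in the 6 libraries at either threshold, 0 with an adjusted p, and 1 to 3 when 1 library was left out (1 without GOAT KO 1140, and 3 where *Slc38a3* or *Bmp8a* was called lower). With junction reads 0 were called, but *Grem1* and *Tnfaip6* had too few such reads to be tested. Of 134 alternatives of the members' log2 fold changes, 112 kept the direction and 22 reversed, none of them called. *Bmp15* gave -0.0016 with RLE factors and with DESeq2, -0.0069 with no filter, -0.036 in the 6 libraries and -0.068 with junction reads, and ranged from -0.051 to 0.11 when 1 library was left out. The same range was -0.014 to 0.083 for *Gdf9*, -0.31 to 0.056 for *Bmp2*, -0.097 to 0.10 for *Bmpr1b*, -0.24 to 0.0015 for *Bmpr2*, -0.078 to -0.013 for *Bmpr1a*, -0.20 to -0.047 for *Bmp6*, 0.058 (without GOAT KO 1141) to 0.27 (without GOAT KO 1139) for *Bmp4* and -0.28 (without GOAT KO 1139) to -0.023 (without GOAT KO 1146) for *Bmp7*. *Bmpr1b* was 0.017 in the 6 libraries. Junction reads, which the deposited lists can leave out, gave 0.046 for *Bmpr1b*, 0.18 for *Gdf9*, -0.30 for *Bmp6*, -0.28 for *Bmp7* and -0.20 for *Bmpr2*. The difference in the score of oocyte against somatic ligands ranged from 0.0071 to 0.11 when 1 library was left out. *Bmp4* had too few junction reads to be tested. Unadjusted p-values fell under 0.05 for *Bmpr2* without WT 1120 (-0.24, against 10.6% of genes) and *Bmp6* without WT 1121 (-0.20, against 4.47%). The causes of these changes were not tested. With 4 against 4 libraries, an exact test cannot go below 0.0286.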

Other observations

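In WT 1120 and GOAT KO 1139, 7 of the 45 tested pathway genes lay below all other 6 libraries and 4 above, beside 11.0% and 11.3% of all genes. Below were *Bmp3*, the co-receptors *Tgfbr3*, *Rgma* and *Rgmb*, the type II receptor *Acvr2b*, *Ptx3* and *Tll1*, and above were *Smad3*, *Id1*, *Id3* and *Kitl*. *Id1*, a target of BMP signalling, was at 35.4 and 27.5 CPM in these libraries against 18.4 to 22.9 CPM in the other 6. *Kitl*, the granulosa cell ligand of the oocyte receptor Kit, was at 234 and 254 CPM against 163 to 192 CPM. These genes were listed after their values were seen. The summed theca and steroidogenic markers described above were also highest in these 2 libraries, though not each marker was. *Cyp17a1* was at 355 and 600 CPM against 42.3 to 137 CPM in the other 6, whereas *Hsd3b1* was lowest of its label in GOAT KO 1139. The part of those markers in the pattern was not tested.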
